A study of Bos taurus with 12 samples.

Results

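Interferon-stimulated genes of the bovine endometrium were followed in biopsies taken before any embryo was present. The list holds 48 genes that cells switch on in response to interferons, chosen by symbol. Of these, 31 had a probe set above the filter and were measured, among 6781 genes measured in all. A probe set is a group of short array probes for 1 transcript. It was kept where its log2 value exceeded 4 on at least 3 of the 12 arrays, and each gene is represented by its kept probe set with the highest mean.

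The biopsies came from Simmental heifers at day 14 or day 7 of the oestrous cycle, and each heifer received an embryo only in the following cycle. CD stands for heifers whose later pregnancy ended with delivery of a calf, and NP for heifers that did not become pregnant and came back into heat. The groups are CDd14, NPd14, CDd7 and NPd7, with 3 arrays each, and every array carries RNA of a pool. The sources used here do not give how many heifers entered a pool, or whether the same heifers gave both biopsies, so the p-values measure the spread between pools. No treatment is named in the labels, which separate the 4 groups by cycle day and later outcome.

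Interferons bind cell surface receptors and activate JAK kinases, which phosphorylate STAT proteins such as STAT2. With IRF9, STAT2 takes part in a complex that enters the nucleus and switches on a broad set of genes of antiviral defence. In cattle and sheep the same genes are best known in the uterus from early pregnancy, when the elongating conceptus secretes interferon tau, the signal of maternal recognition of pregnancy. The roles given below are known mainly from human and mouse cells. The values describe the luteal phase of a cycle without a conceptus.

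The tissue label was checked against defining genes. EPCAM, an adhesion protein of epithelium, lay between 15.25 and 15.50 log2 on all 12 arrays, and MSX1, a homeobox factor of the uterus, between 13.85 and 14.42. The probe sets of the steroid receptors PGR and ESR1 and of HOXA10 and FOXL2 stayed below the filter. Of 11 trophoblast genes with a probe set, 9 were below the filter, among them IFNT2, an interferon tau gene, at 1.43 to 1.46 on every array. The 2 above it were PTI and SSLP1, which lay between 6.75 and 8.06 and between 4.26 and 12.31. Correlations between arrays across probe sets were 0.921 to 0.988 within groups and 0.862 to 0.981 between groups.

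Of the 17 members without a usable value, 13 have no probe set listed under their symbol: IFIH1, DDX58, IRF1, OAS1, IFIT1, IFIT3, IFITM2, IFITM3, BST2, SAMHD1, ADAR, GBP2 and SP100. OAS1Y and OAS2 appear only on a probe set annotated to several genes and are not reported. MX2, a second dynamin-like antiviral GTPase, lay at 1.94 to 1.97 on all 12 arrays, and HERC6, which in mouse attaches ISG15 to proteins, at 3.43 to 3.71. For both, these values near the floor of the method give no order between groups. RSAD2 passed the filter only through its day 14 arrays, and IRF2 only through its day 7 arrays. IRF2 and CXCL10 were above 4 on 4 arrays each, IFIT2 on 8 and GBP5 on 11, and the other 26 members were above it on every array.

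Day 14 was first set against day 7 within CD, which asks how the genes stand in the mid-luteal and the early luteal endometrium of heifers that later calved. Many interferon-stimulated genes were higher in CDd14. With limma, adjusted by Benjamini-Hochberg over all kept probe sets, 15 of the 31 members rose and 0 fell (48.4%), against 24.1% of all genes called in either direction with 9.87% of all genes up and 14.2% down. At an unadjusted p under 0.05 there were 21 members, against 39.3% of all genes. The median member difference was 0.86 log2, near 0 over all genes. The 3 CDd14 pools lay wholly above the 3 CDd7 pools for 20 members and wholly below for 2, against 22.1% and 22.8% of all genes. RSAD2 is among the 15 and had to be high at day 14 to be kept. With values under 4 set to 4, it was the 1 call lost. Among the 26 members above 4 on all 12 arrays, 14 rose. The rises ranged from 1.40-fold for PARP12 to 7.11-fold for IFI27. The heat map of the members shows this split, with CDd14 mostly above and CDd7 mostly below each gene's mean.

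**Figure D1:**
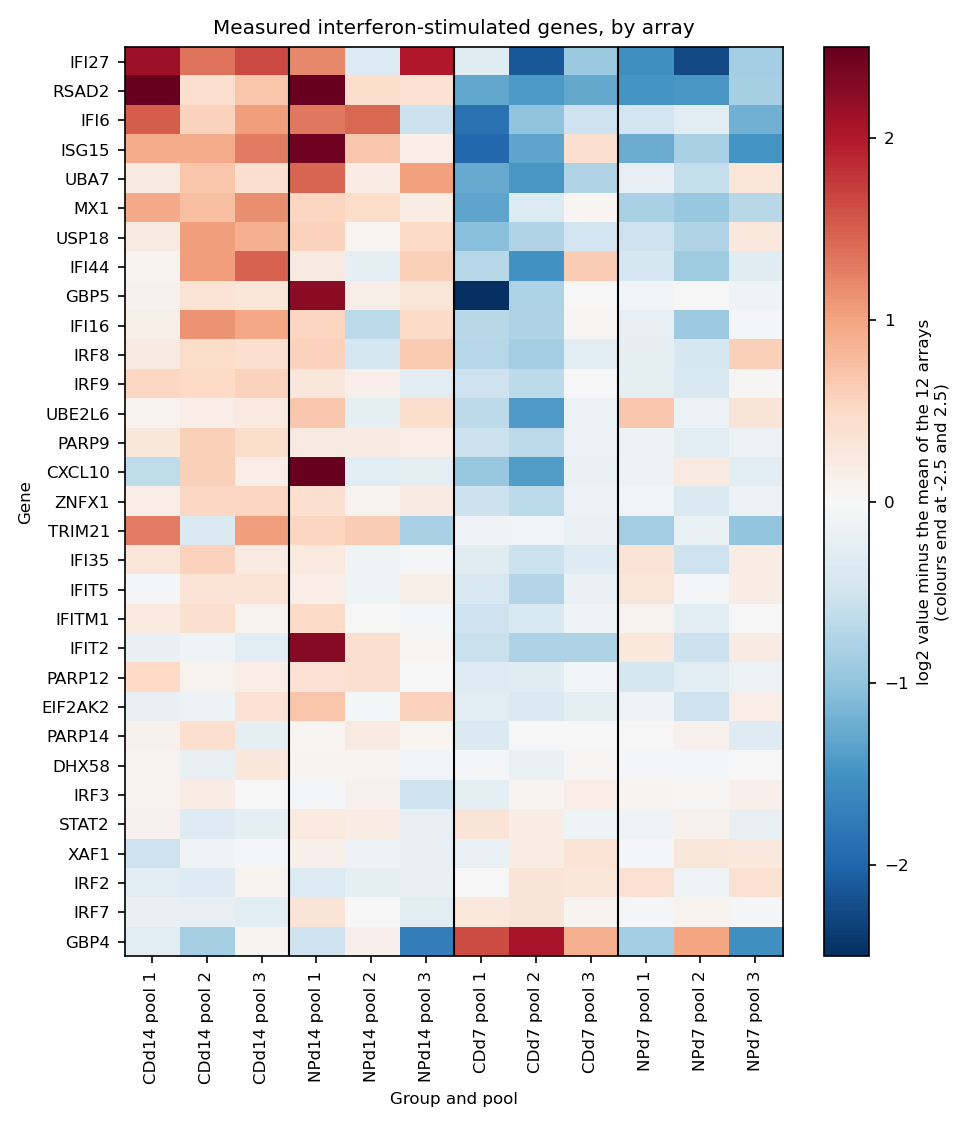
Heat map of the 31 measured interferon-stimulated genes (rows) on the 12 arrays (columns, by group and pool), coloured by the deviation from the gene's mean over all arrays (log2). The mean over the members was 0.34, 0.34 and 0.45 in the CDd14 pools, 0.76, 0.11 and 0.09 in the NPd14 pools, -0.58, -0.56 and -0.13 in the CDd7 pools and -0.26, -0.36 and -0.20 in the NPd7 pools.

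The same comparison in NP had the same direction with a smaller median and no member past the threshold. Of the 31 members, 26 were above 0, as in CD, with a median of 0.42 log2 against -0.06 for all genes, or 0.25 without NPd14 pool 1. By limma 0 members passed after Benjamini-Hochberg adjustment (smallest adjusted p = 0.116), where 0.133% of all genes did. At an unadjusted p under 0.05 there were 12 members, 11 of them higher at day 14, against 16.5% of all genes. The NPd14 pools lay wholly above the NPd7 pools for 9 members and wholly below for 1, against 7.33% and 15.3% of all genes. RSAD2 is among the 11 and among the 9, and had to be high at day 14 to be kept. The 1 wholly below is IRF2, which was kept only through its day 7 arrays. Among the 26 members above 4 on all 12 arrays the median was 0.33 log2, and 0 passed. The members below describe both outcomes side by side, by role.

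Sensors and the factors that transmit the signal come first. IFI16, a nuclear sensor of foreign DNA, read 8.84, 9.82 and 9.67 in the CDd14 pools, against 8.01, 7.93 and 8.72 in the CDd7 pools. The groups did not overlap, and IFI16 rose by 1.22 ± 0.40 (log2 difference, SE; 2.33-fold, limma adjusted p = 0.0494). This call held in 5 of the 12 fits that each left out 1 array. In NP the pools overlapped, at 9.23, 8.03 and 9.18 on day 14, against 8.49, 7.79 and 8.67 on day 7, with a difference of 0.49 ± 0.40 (SE, limma adjusted p = 0.568). DHX58, a cytosolic RNA helicase that tunes RNA sensing, moved little, with 0.13 in CD and 0.06 in NP.

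IRF9 carries the DNA contact of the complex it forms with STAT2. Its 3 CDd14 values were close together, at 7.93, 7.90 and 7.98, against 6.88, 6.74 and 7.42 in CDd7. In NP the values were 7.70, 7.53 and 7.15 at day 14, against 7.18, 6.99 and 7.44 at day 7, and overlapped. IRF9 rose in CD by 0.92 ± 0.20 (SE; 1.90-fold, limma adjusted p = 0.0117), and its difference in NP was 0.25 ± 0.20 (limma adjusted p = 0.562). Its partner STAT2 read 6.22, 5.80 and 5.89 in CDd14, against 6.44, 6.29 and 6.01 in CDd7, a difference of -0.28 that did not pass. In NP, STAT2 had 6.36, 6.29 and 5.90 at day 14, against 6.0, 6.21 and 5.92 at day 7. STAT2 overlapped between days in both outcomes.

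The other interferon regulatory factors did not pass. IRF8, a factor of macrophages, dendritic cells and B cells, was at 8.85, 9.08 and 9.02 in CDd14, against 7.89, 7.75 and 8.34 in CDd7. These pools did not overlap, but the difference of 0.98 ± 0.33 missed the threshold (SE, limma adjusted p = 0.0531). In NP, IRF8 had 9.19, 8.18 and 9.26 at day 14, against 8.39, 8.20 and 9.21 at day 7. IRF7, the amplifier of interferon alpha production, had a difference of -0.44 ± 0.15 in CD, with every CDd14 pool under every CDd7 pool (SE, limma adjusted p = 0.0568) and stood at 0.03 in NP. IRF3, which starts interferon beta transcription, differed by 0.09 in CD and -0.22 in NP. IRF2, which opposes IRF1 at many interferon-responsive promoters, read 3.51, 3.49 and 3.89 in CDd14, against 3.80, 4.12 and 4.10 in CDd7, and 3.45, 3.59 and 3.62 in NPd14, against 4.19, 3.69 and 4.19 in NPd7. It lay near the filter on all arrays, with differences of -0.38 in CD and -0.47 in NP (limma adjusted p = 0.127 and 0.229). Its values above 4 were all at day 7, so the filter favoured this direction.

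ISG15 is a ubiquitin-like protein that is released from cells and also attached to other proteins. Its levels were 7.62, 7.63 and 7.99 in the CDd14 pools, against 4.73, 5.39 and 7.09 in the CDd7 pools. In NP they were 9.13, 7.37 and 6.87 at day 14, against 5.45, 5.90 and 5.21 at day 7. The days did not overlap in either outcome. ISG15 rose in CD by 2.01 ± 0.64 (SE; 4.04-fold, limma adjusted p = 0.0452), and its difference in NP was of like size, 2.27 ± 0.64, without passing (SE, limma adjusted p = 0.158). CDd7 pool 3, at 7.09, lay above all other day 7 pools, and the ISG15 call in CD held in 3 of the 12 fits that each left out 1 array.

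UBA7, the enzyme that activates ISG15 for attachment, moved more evenly over the pools. It read 7.09, 7.54 and 7.25 in CDd14, against 5.59, 5.40 and 6.09 in CDd7. In NP it read 8.31, 7.03 and 7.89 at day 14, against 6.66, 6.26 and 7.16 at day 7. UBA7 rose in CD by 1.60 ± 0.34 (SE; 3.03-fold, limma adjusted p = 0.0101) and differed by 1.05 ± 0.34 in NP, where 1 day 7 pool lay among the day 14 pools (SE, limma adjusted p = 0.187). UBE2L6, the enzyme that carries ISG15 to its targets, differed by 0.91 ± 0.33 in CD with no overlap (SE, limma adjusted p = 0.0721) and by 0.01 in NP.

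USP18 removes ISG15 from proteins and also damps the interferon alpha receptor. It was at 7.03, 7.85 and 7.69 in CDd14, against 5.76, 6.05 and 6.33 in CDd7, and at 7.37, 6.85 and 7.28 in NPd14, against 6.29, 6.05 and 7.06 in NPd7. The CD pools were apart by day and the NP pools overlapped. USP18 rose in CD by 1.47 ± 0.30 (SE; 2.78-fold, limma adjusted p = 0.00873) and differed by 0.70 ± 0.30 in NP (SE, limma adjusted p = 0.286). A second kept probe set of the gene gave 0.60 in CD, also past the threshold (limma adjusted p = 0.0204), and -0.10 in NP. Of the 4 measured genes of the ISG15 system, 3 rose in CD, against 9.87% of all genes, and 0 passed in NP, against 0.133%. The ISG15 call among them held in 8 of 22 alternative fits.

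**Figure D2:**
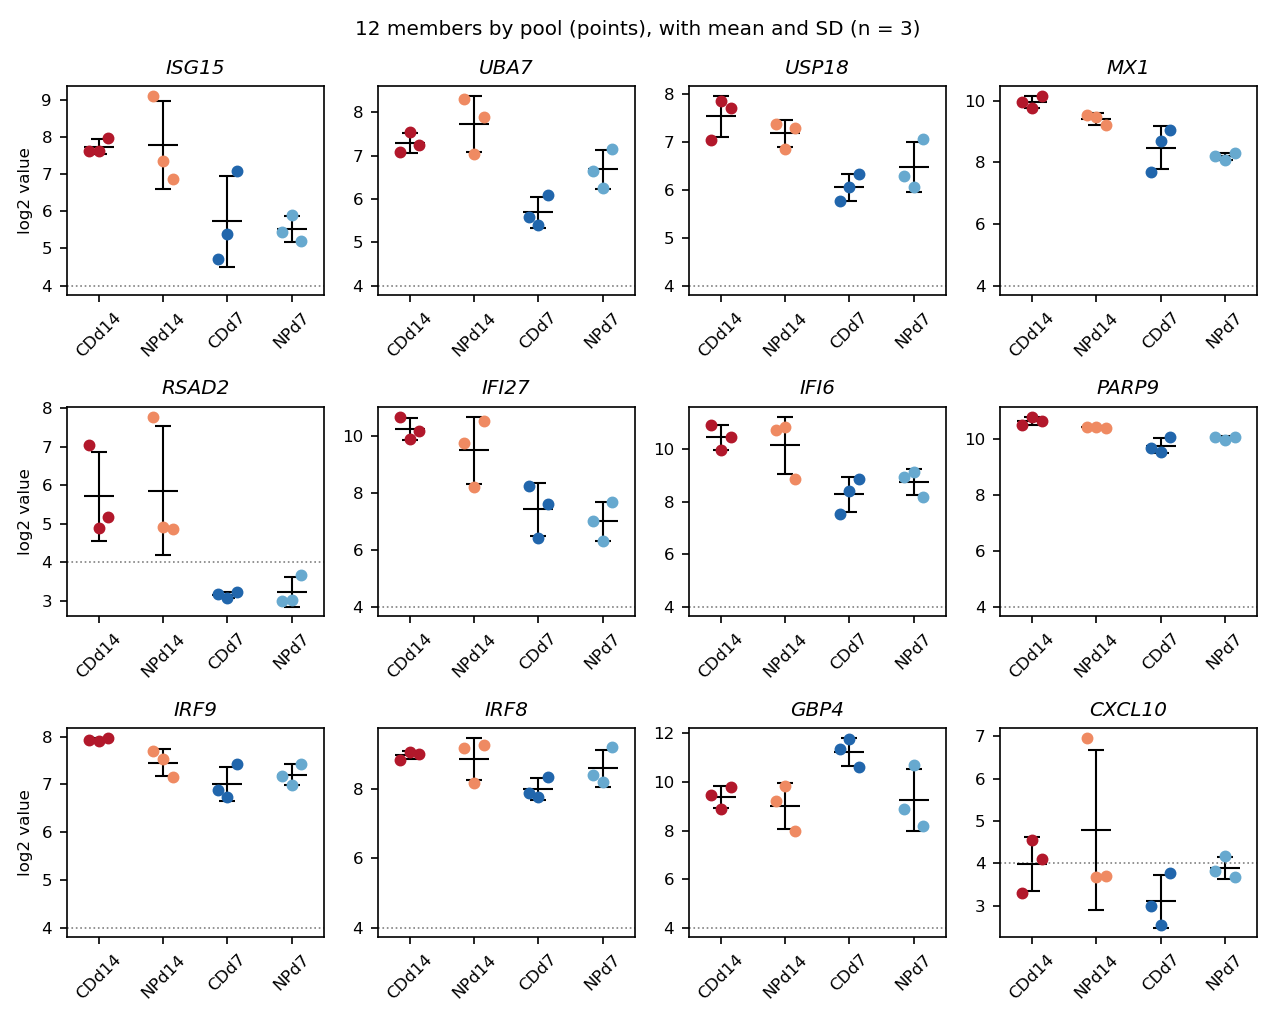
Levels of 12 members (log2, vertical axis of each panel) in every pool, with the bar at the group mean, for CDd14, NPd14, CDd7 and NPd7 from left to right. MX1 reaches 9.77 to 10.17 in CDd14 and 9.20 to 9.54 in NPd14, and stays at 7.69 to 9.06 in CDd7 and 8.07 to 8.31 in NPd7. NPd14 pool 1 stands above the other NPd14 pools for ISG15 and RSAD2.

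Among the antiviral effectors, 5 of the 7 measured passed as higher in CDd14, RSAD2 included, against 9.87% of all genes, and 0 passed in NP, against 0.133%. MX1, a dynamin-like GTPase that blocks viral replication, read 9.96, 9.77 and 10.17 in CDd14, against 7.69, 8.67 and 9.06 in CDd7. In NP it read 9.54, 9.47 and 9.20 at day 14, against 8.20, 8.07 and 8.31 at day 7. The days were apart in both outcomes, and the NP pools were the tighter. MX1 rose in CD by 1.49 ± 0.29 (SE; 2.81-fold, limma adjusted p = 0.00767), and in NP the difference was 1.21 ± 0.29 (SE, limma adjusted p = 0.116). MX1 had the smallest p of all members in NP.

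RSAD2, or viperin, makes a chain-terminating nucleotide and acts at lipid droplets. Its values were 7.04, 4.90 and 5.18 in CDd14, against 3.19, 3.06 and 3.22 in CDd7. NPd14 had 7.79, 4.92 and 4.86, against 3.0, 3.02 and 3.66 in NPd7. All 6 day 7 pools lay under 4, so the size of the difference rests on values near the floor. In each outcome pool 1 stood well above the other day 14 pools. The fitted difference in CD was 2.55 ± 0.76 (SE, limma adjusted p = 0.0355), and in NP 2.63 ± 0.76 (SE, limma adjusted p = 0.163). With values under 4 set to 4, the CD difference was 1.71 and no longer passed (limma adjusted p = 0.117).

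Smaller rises were found for ZNFX1, IFIT5 and IFITM1. ZNFX1, a helicase that binds viral RNA, had 10.06, 10.42 and 10.44 in CDd14, against 9.35, 9.23 and 9.74 in CDd7, and rose by 0.86 ± 0.17 (SE; 1.82-fold, limma adjusted p = 0.00799). Its NP pools were also apart by day, at 10.31, 9.99 and 10.09 in NPd14, against 9.84, 9.54 and 9.75 in NPd7, with a difference of 0.42 ± 0.17 (SE, limma adjusted p = 0.267). IFIT5, which binds the ends of foreign RNA, had 11.33, 11.70 and 11.70 in CDd14, against 10.97, 10.63 and 11.20 in CDd7. It rose in CD by 0.64 ± 0.18 (SE; 1.56-fold, limma adjusted p = 0.0265), while in NP it overlapped, at 11.54, 11.26 and 11.51 on day 14, against 11.66, 11.31 and 11.54 on day 7, with a difference of -0.07 ± 0.18. IFITM1, a membrane protein that hinders virus entry, had 7.76, 7.90 and 7.61 in CDd14, against 6.99, 7.12 and 7.40 in CDd7, and 7.99, 7.53 and 7.49 in NPd14, against 7.60, 7.26 and 7.5 in NPd7. It rose in CD by 0.58 ± 0.17 (SE; 1.5-fold, limma adjusted p = 0.0356), and the NP pools overlapped. EIF2AK2, the RNA-activated kinase that stops translation, differed by 0.30 in CD and 0.56 in NP. IFIT2, a relative of IFIT5, differed by 0.50 in CD and 0.93 in NP. Neither passed in either outcome.

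The ADP-ribosyltransferase family gave tight values. PARP9, which works with the ubiquitin ligase DTX3L in interferon signalling and DNA repair, read 10.50, 10.81 and 10.66 in CDd14, against 9.69, 9.54 and 10.08 in CDd7. In NP it read 10.45, 10.43 and 10.38 at day 14, against 10.09, 9.95 and 10.06 at day 7. The days were apart in both outcomes. PARP9 rose in CD by 0.89 ± 0.14 (SE; 1.85-fold) with the smallest adjusted p of the members (limma adjusted p = 0.00429), and differed by 0.38 ± 0.14 in NP (SE, limma adjusted p = 0.242). PARP12, an antiviral member of the family, had 13.25, 12.83 and 12.92 in CDd14, against 12.42, 12.44 and 12.69 in CDd7, and rose by 0.49 ± 0.16 (SE; 1.40-fold, limma adjusted p = 0.049). Its NP difference was 0.54 ± 0.16 (SE, limma adjusted p = 0.163), from pools at 13.12, 13.15 and 12.77 in NPd14, against 12.31, 12.49 and 12.60 in NPd7. The PARP12 call in CD held in 2 of the 12 fits that each left out 1 array. PARP14, a cofactor of STAT6, differed by 0.23 in CD and 0.18 in NP. In the RefSeq gene table of assembly ARS-UCD2.0, PARP9, DTX3L and PARP14 lie next to each other on chromosome 1.

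Of the other induced proteins, IFI27 and IFI6 had large differences. IFI27, a small membrane protein linked to mitochondria and apoptosis, read 10.67, 9.90 and 10.19 in CDd14, against 8.24, 6.41 and 7.62 in CDd7. In NP it read 9.74, 8.19 and 10.54 at day 14, against 7.01, 6.29 and 7.69 at day 7, and the days were apart in both outcomes. IFI27 rose in CD by 2.83 ± 0.63 (SE; 7.11-fold, limma adjusted p = 0.0122) and differed by 2.5 ± 0.63 in NP (SE, limma adjusted p = 0.123). Its neighbour on chromosome 21 in the same table, ISG12(B), of the same small protein family, differed by 0.22 in CD and 1.92 in NP (limma adjusted p = 0.862 and 0.276). ISG12(B) had 6.65, 3.44 and 6.36 in NPd14, against 3.60, 3.56 and 3.52 in NPd7, so its NP difference rests on values near the floor.

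IFI6, another small membrane protein that counters apoptosis, had 10.92, 9.97 and 10.45 in CDd14, against 7.55, 8.41 and 8.88 in CDd7, and 10.72, 10.84 and 8.87 in NPd14, against 8.92, 9.12 and 8.20 in NPd7. It rose in CD by 2.17 ± 0.54 (SE; 4.51-fold, limma adjusted p = 0.0185). In NP, where pool 3 of day 14 lay among the day 7 pools, the difference was 1.40 ± 0.54 (SE, limma adjusted p = 0.245). IFI35, a binding partner of the interferon-induced protein NMI, had 9.45, 9.71 and 9.34 in CDd14, against 8.83, 8.61 and 8.83 in CDd7, and rose by 0.74 ± 0.21 (SE; 1.68-fold, limma adjusted p = 0.0323). In NP it overlapped, at 9.39, 9.04 and 9.10 on day 14, against 9.48, 8.62 and 9.32 on day 7, with a difference of 0.04 ± 0.21. IFI44, a cytoplasmic protein, differed by 1.39 ± 0.51 in CD (SE, limma adjusted p = 0.073) and by 0.73 in NP, and TRIM21, an antibody receptor of the cytosol and ubiquitin ligase, by 0.76 and 0.80. XAF1, a promoter of apoptosis, had differences of -0.34 in CD and -0.25 in NP and did not pass.

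Guanylate-binding proteins, GTPases that attack membranes around intracellular pathogens, did not move together. GBP4 read 9.45, 8.88 and 9.78 in CDd14, against 11.35, 11.77 and 10.60 in CDd7. These pools did not overlap, and the difference of -1.87 ± 0.65 was the lowest of all members without passing (SE, limma adjusted p = 0.0595). In NP, GBP4 had 9.20, 9.84 and 7.99 at day 14, against 8.88, 10.70 and 8.19 at day 7. GBP5 read 6.32, 6.56 and 6.51 in CDd14, against 3.68, 5.41 and 6.21 in CDd7, a difference of 1.36 ± 0.64 (SE, limma adjusted p = 0.143). A second kept probe set of GBP5, lower in signal, gave 0.06 in CD, so the gene's probe sets disagree there. CXCL10, a chemokine that draws T cells and natural killer cells, had 3.31, 4.55 and 4.11 in CDd14, against 3.0, 2.54 and 3.77 in CDd7, and 6.98, 3.69 and 3.71 in NPd14, against 3.82, 4.17 and 3.69 in NPd7. Both of its differences, 0.88 and 0.90, were within the spread of pools.

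**Figure D3:**
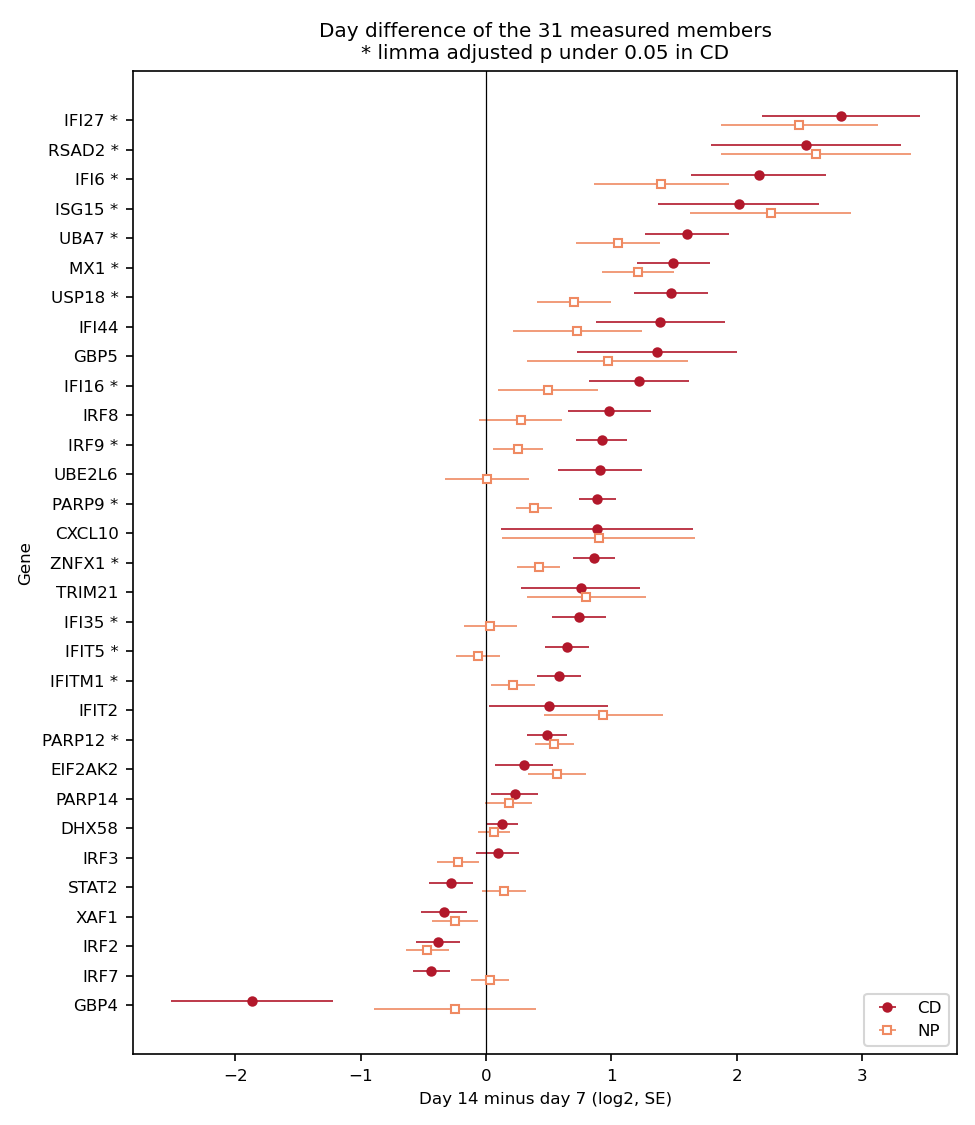
Day 14 minus day 7 difference (log2, horizontal axis, with SE bars) of the 31 measured members in CD (filled circles) and NP (open squares), ordered by the difference in CD. A star marks the 15 members past the threshold in CD, from PARP12 at 0.49 to IFI27 at 2.83. IFI27, RSAD2 and ISG15 are above 2 in both outcomes, and GBP4 is lowest at -1.87 in CD.

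A test of whether the day difference itself differed between CD and NP found 0 of the 31 members past the threshold by limma, and 0.0% of all genes (smallest member adjusted p = 0.301). At an unadjusted p under 0.05 there were 5 members, against 14.5% of all genes. The median was 0.32 log2, against 0.04 for all genes. Leaving out CDd7 pool 1 gave 0.07, CDd7 pool 2 gave 0.17, NPd14 pool 3 gave 0.13, NPd14 pool 2 gave 0.19 and NPd14 pool 1 gave 0.52. The differences with the smallest p were 0.71 ± 0.25 for IFIT5, 0.51 ± 0.20 for PARP9 and 0.67 ± 0.29 for IRF9 (SE, limma adjusted p = 0.301, 0.327 and 0.337). For these genes the CD and NP day differences were 0.64 and -0.07, 0.89 and 0.38, and 0.92 and 0.25. That members passed in CD and not in NP is therefore no shown difference between the outcomes. In simulated data with a small share of probe sets changed, this test found 19% of those changed by 1 log2 and 70% of those changed by 2.

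NPd14 pool 1 stood apart for part of the list. It held the highest of the 12 values for 9 of the 31 members: ISG15, UBA7, RSAD2, EIF2AK2, IFIT2, IFITM1, GBP5, CXCL10 and IRF7. IFIT2 reached 6.81 there, against 4.94 and 4.58 in the other NPd14 pools, and GBP5 8.47, against 6.36 and 6.52. Without that pool the NP day difference was 1.60 ± 0.57 for ISG15 and 1.66 ± 0.53 for RSAD2, and -0.19 ± 0.41 for CXCL10 (SE, limma adjusted p = 0.35, 0.325 and 0.885). Among the day 7 arrays, CDd7 pool 2 held the lowest of the 12 values for 11 members and CDd7 pool 1 for 7. The count of 15 in CD was 7 without CDd7 pool 1, 5 without CDd7 pool 2, 9 without CDd14 pool 2 and 7 without CDd14 pool 3. In the same order these fits called 1092, 652, 1084 and 809 of all genes, against 1633 with all 12 arrays. MX1, PARP9, UBA7, USP18 and ZNFX1 kept their call in all 12 fits that left out 1 array. In NP, MX1 passed without CDd7 pool 1, which enters only the estimate of spread, and IFI27 passed without NPd14 pool 2. Between days in NP those 2 fits called 2 and 63 of all genes.

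The day comparison in CD moved together with measures of RNA and cell content. The 3' to 5' difference of control transcripts, which grows as RNA is shortened or copied less fully, was 1.97 ± 0.11 in CDd14 and 1.65 ± 0.20 in CDd7, and 2.32 ± 0.17 in NPd14 and 1.94 ± 0.19 in NPd7 (log2, SD, n = 3; exact permutation p = 0.1 for each day difference, the smallest that 3 against 3 allow). With it as a covariate, a fit added after the data were seen, 0 of the 15 members passed by limma, 12 of the 31 had an unadjusted p under 0.05 and the median was 0.60 log2. That fit called 68 of all genes, against 1633 without the covariate. All 6 listed leukocyte markers were measured, and their mean level lay between 7.54 and 8.41 in CDd14, against 7.06 to 8.04 in CDd7, and between 7.56 and 8.84 in NPd14, against 7.70 to 8.46 in NPd7. With it as a covariate, 9 of the 15 CD calls remained and the median was 0.54. Of all genes, 862 were called in that fit, against 1633 without the covariate. T and natural killer cell markers (9 of 18 measured) lay between 7.39 and 7.97 in CDd14, against 6.17 to 7.52 in CDd7. In NP the T and natural killer markers ran the other way, between 7.03 and 8.29 at day 14, against 7.44 to 8.78 at day 7. Their median day difference was 0.77 log2 in CD and -0.43 in NP. CD4, PRF1 and GZMB were below the filter. The 9 measured epithelial markers of 12 lay between 11.49 and 11.81 in CDd14, against 11.10 to 11.13 in CDd7. In NP the epithelial markers lay between 11.25 and 11.59 at day 14, against 11.15 to 11.28 at day 7. Neutrophil markers (3 of 7 measured: S100A8, S100A9 and S100A12) lay between 6.37 and 7.67 in CDd14, against 3.81 to 5.80 in CDd7. In NP they lay between 7.59 and 10.01 at day 14, against 5.93 to 8.32 at day 7. The median day difference of these 3 was 2.54 log2 in CD and 2.24 in NP. MPO and ELANE of that list were below the filter. The mean of the stromal fibroblast markers (11 of 14 measured) was 7.37 in CDd14 and 7.09 in CDd7, but 7.98 in NPd14 and 9.40 in NPd7. The part of the T cell, epithelial, neutrophil and stromal markers in the members' values was not tested. Fewer cells of a type and less RNA per cell cannot be told apart in such biopsies.

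The outcome groups were then compared at day 14, which asks whether interferon-stimulated genes already differed by later outcome in the cycle before transfer. By limma 0 of 31 members passed (smallest adjusted p = 0.643), and 0.0147% of all genes did. The median was 0.09 log2, against 0.03 for all genes, with 18 members above 0 and 13 below. IRF9, MX1 and PARP9 were higher in every CDd14 pool than in every NPd14 pool, and IFIT2 was lower in every one, so 4 of 31 members did not overlap, against 10.6% of all genes. IRF9 differed by 0.48 ± 0.20, MX1 by 0.56 ± 0.29 and IFIT2 by -1.10 ± 0.47 (SE, limma adjusted p = 0.643, 0.711 and 0.659). Without NPd14 pool 1, IFIT2 differed by -0.42 ± 0.24 and the median of the members was 0.26. That median was 0.06 without NPd14 pool 2 and -0.0084 without NPd14 pool 3. ISG15 averaged 7.75 ± 0.21 in CDd14 and 7.79 ± 1.19 in NPd14 (SD, n = 3). With 2 members at an unadjusted p under 0.05, against 6.34% of all genes, the members stood near the background. The mean of the 3 measured neutrophil markers was 7.08 in CDd14 and 8.86 in NPd14. JCHAIN, the 1 measured gene of the B and plasma cell list, stood at 7.25 and 10.65. Means of the T and natural killer, epithelial, uterine and trophoblast lists were higher in CDd14. The part of these markers in the members' values was not tested. The 3' to 5' difference in CDd14 minus that in NPd14 was -0.35 (exact permutation p = 0.1). With it as a covariate 0 members passed by limma and the median was 0.13, with IRF9 at 0.62 and MX1 at 0.43, and 8 members changed sign.

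At day 7 the members also did not pass. By limma the count was 0 of 31 (smallest adjusted p = 0.0762), where 3.48% of all genes passed. The median was -0.10 log2, against -0.01 for all genes, with 22 members below 0. It was -0.39 without CDd7 pool 3, -0.28 without NPd7 pool 2, -0.14 without NPd7 pool 1 and -0.04 without NPd7 pool 3. At an unadjusted p under 0.05 there were 4 members, against 30.4% of all genes, and 4 were wholly lower in CDd7, against 18.6%. IFIT5 had 10.97, 10.63 and 11.20 in CDd7, against 11.66, 11.31 and 11.54 in NPd7, a difference of -0.57 ± 0.18 (SE, limma adjusted p = 0.0762). UBE2L6 had 7.13, 6.36 and 7.63 in CDd7, against 8.45, 7.63 and 8.11 in NPd7, a difference of -1.02 ± 0.33 (SE, limma adjusted p = 0.0853). Both were lower in CDd7 in every pool, by less than 0.01 log2 for the closest pools of UBE2L6.

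GBP4 ran the other way at day 7, with 11.35, 11.77 and 10.60 in CDd7, against 8.88, 10.70 and 8.19 in NPd7. The groups overlapped through NPd7 pool 2, and the difference was 1.98 ± 0.65 (SE, limma adjusted p = 0.0854). UBA7 differed by -1.0 ± 0.34 (SE, limma adjusted p = 0.0924), with 5.59, 5.40 and 6.09 in CDd7, against 6.66, 6.26 and 7.16 in NPd7, and did not overlap. Without NPd7 pool 2, GBP4 and IFI35 passed, and without CDd7 pool 3, UBE2L6 did. These fits called 875 and 420 of 6781 genes, against 236 with all 12 arrays. Markers of some other cells were at lower mean levels in CDd7, while other lists were higher there. The mean of the neutrophil markers (3 of 7 measured) was 5.04 in CDd7 and 6.96 in NPd7. JCHAIN, the 1 measured gene of the B and plasma cell list, stood at 5.97 in CDd7 and 9.46 in NPd7. The endothelial list (1 of 9 measured) stood at 6.39 in CDd7 and 4.02 in NPd7. The uterine list (3 of 9 measured) stood at 9.85 and 9.32. The mean of PTI and SSLP1, the 2 of 19 genes of the trophoblast list that were measured, was 8.45 and 7.92. The other genes of that list with a probe set, IFNT2 among them, were below the filter. The mean of the T and natural killer markers was 6.94 in CDd7 and 8.14 in NPd7, that of 11 measured stromal fibroblast markers of 14 was 7.09 in CDd7 and 9.40 in NPd7, and that of the leukocyte markers was 7.45 in CDd7 and 8.10 in NPd7. With the leukocyte level as a covariate the median of the members was -0.0043, GBP4 differed by 1.27, UBE2L6 by -0.58 and IFIT5 by -0.34. In that fit 0 members passed by limma, and 3 of 6781 genes did. The part of the T cell, stromal, neutrophil and plasma cell markers in the members' values was not tested. The 3' to 5' difference in CDd7 minus that in NPd7 was -0.29 (exact permutation p = 0.3).

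**Figure D4:**
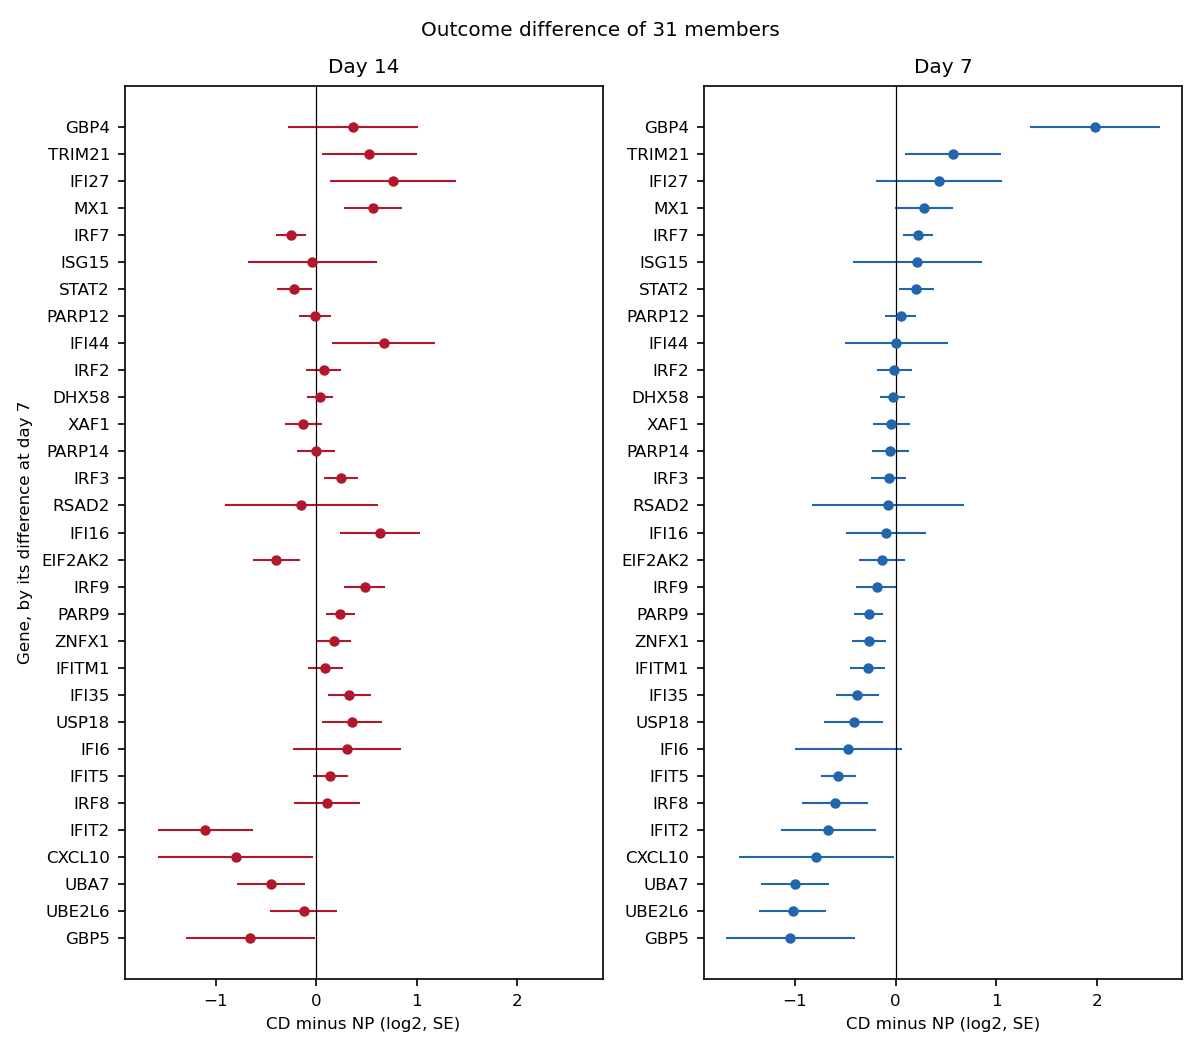
CD minus NP difference (log2, horizontal axis, with SE bars) of the 31 measured members at day 14 (left) and day 7 (right). Medians are 0.09 at day 14 and -0.10 at day 7. GBP4 stands at 1.98 and UBE2L6 at -1.02 at day 7, and no member passed the threshold on either day.

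Genes of interferon reception, signalling and response that are not members were read from a second list, of which 36 were measured. That list was chosen with earlier results of these data known, so its counts are a description and no independent support. IFNAR1, IFNGR1, TYK2, SOCS1 and SOCS3 had no kept probe set named for them alone. Between days in CD, 15 rose and 1 fell by limma (44.4%), against 24.1% of all genes called in either direction. Of all genes, 9.87% rose and 14.2% fell. The median of the list was 0.49, near 0 over all genes. Several of the genes that rose are parts of the receptors. IFNAR2, a chain of the type I interferon receptor, read 9.81, 10.29 and 9.98 in CDd14, against 9.21, 8.70 and 9.46 in CDd7, and rose by 0.90 ± 0.22 (SE, limma adjusted p = 0.0173). IFNGR2, a chain of the interferon gamma receptor, rose by 0.88 ± 0.17, and IL10RB, shared by the interferon lambda and interleukin-10 receptors, by 0.81 ± 0.16 (SE, limma adjusted p = 0.00717 and 0.00771). These 3 genes lie in 1 run with IFNAR1 on chromosome 1 of ARS-UCD2.0. JAK1, the kinase of these receptors, differed by 0.39 ± 0.13 and STAT3 by 0.52 ± 0.24 (SE, limma adjusted p = 0.0565 and 0.139).

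TRIM25, a ubiquitin ligase of the RNA sensor pathway that can also attach ISG15, had the smallest p of that list. It read 11.24, 11.01 and 10.80 in CDd14, against 9.69, 9.43 and 9.92 in CDd7, and 10.87, 11.01 and 10.57 in NPd14, against 9.93, 10.05 and 10.20 in NPd7. The days were apart in both outcomes. TRIM25 rose in CD by 1.34 ± 0.17 (SE, limma adjusted p = 0.00244) and differed by 0.76 ± 0.17 in NP (SE, limma adjusted p = 0.105). IKBKE, a kinase that activates IRF3, rose by 1.90 ± 0.35 (SE, limma adjusted p = 0.00646), and the endotoxin receptor TLR4 by 0.91. RTP4, an interferon-induced chaperone of membrane receptors, rose by 1.95, the transcription factor IRF5 by 1.94, the antiviral factor SAMD9 by 1.93, and the lysosomal thiol reductase IFI30 by 0.92. DTX3L, the partner of PARP9, rose by 0.86, the secreted glycoprotein LGALS3BP by 0.79, the aminopeptidase LAP3 by 0.65, and the ubiquitin ligases TRIM38 by 0.61 and HERC4 by 0.45. MAVS, the mitochondrial adaptor of RNA sensing, fell by 0.51 (limma adjusted p = 0.0422). GBP1, the neighbour of GBP5 on chromosome 3, differed by 2.55 ± 0.92 (SE, limma adjusted p = 0.0691).

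In the other comparisons the second list gave 1 call, at day 7 (2.78% of the list, against 3.48% of all genes). IKBKE fell in CDd7 relative to NPd7, with 4.89, 4.45 and 5.11 in CDd7, against 6.53, 5.74 and 6.86 in NPd7, by 1.56 ± 0.35 on the log2 scale (SE, limma adjusted p = 0.0447). In NP the day comparison had 32 of 36 genes above 0 with a median of 0.26 and 0 calls, with 6 at an unadjusted p under 0.05, near the 16.5% of all genes (smallest limma adjusted p = 0.105). The comparison at day 14 had 0 calls, with 3 at an unadjusted p under 0.05, against 6.34% of all genes. The difference of the day effects had 0, with 8, against 14.5%. The smallest limma adjusted p in these were 0.617 and 0.307.

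**Figure D5:**
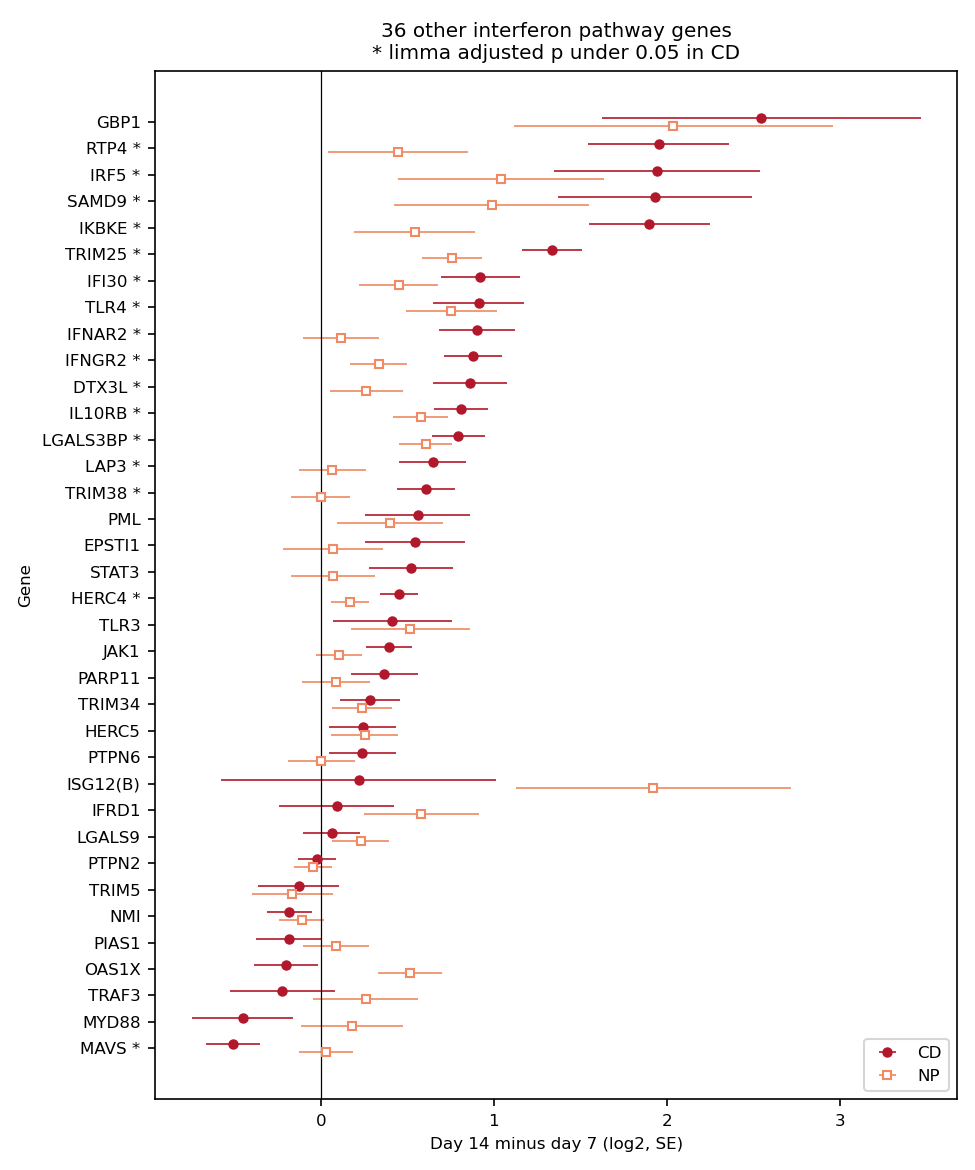
Day 14 minus day 7 difference (log2, horizontal axis, with SE bars) of the 36 measured genes of interferon reception, signalling and response outside the list, in CD and in NP. In CD 15 rose and 1 fell, with TRIM25 at 1.34 and IKBKE at 1.90, and the medians are 0.49 in CD and 0.26 in NP.

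Last, the members were compared with each other over the 12 arrays, as a description of arrays that share their groups and pools. Among the 465 pairs of members the median Pearson correlation was 0.447, with 52 pairs above 0.8 and 132 below 0. ISG15 ran closest with MX1 (0.881), IFI6 (0.873), PARP12 (0.850), RSAD2 (0.843) and ZNFX1 (0.834). After the group means were taken out, its closest partners were GBP5 (0.908) and CXCL10 (0.789), both highest in NPd14 pool 1, and MX1 was at 0.693. GBP4 ran against most members, with a median of -0.489 and its lowest values with IRF8 (-0.864) and UBE2L6 (-0.851). IRF2, IRF7, STAT2 and XAF1 also had negative medians, at -0.426, -0.304, -0.233 and -0.218.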

How the data were processed

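The values are log2 intensities that the authors deposited after GCRMA, a method of background correction, normalization between arrays and probe set summary. The submitters' processing notes name GCRMA and limma without a version. Dim probe sets end near a floor under GCRMA, so a fold change from a dim level depends on it. Pools were arrayed, per the labels' protocols, and numbered from the sample titles. In 1 CDd14 title the name disagrees with the replicate number, and the number was followed. Precision is limited by the number of arrays.

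From 24128 probe sets, 112 controls were left out, and 13449 of 24016 (56.0%) exceeded 4 on at least 3 arrays. Of these, 8239 carry 1 symbol in the platform annotation, 59 several, and 5151 are unnamed. Probe set names ending in _s_at can match several transcripts. Limma 3.58.1 in R 4.3.3 fitted 4 group means over 12 arrays (8 residual and 2.13 prior degrees of freedom), with eBayes. The two-sided p-values were adjusted by Benjamini-Hochberg over all 13449, with a threshold of 0.05. Recovery was also simulated with a small share of the 13449 probe sets changed. For the day effect in CD, 46.5% of probe sets changed by 1 log2, and 85% of those changed by 2, were recovered. A larger share of genes was called in the real comparison, so these rates need not hold there.

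The members, lists and tests were chosen with earlier results of these data known. Members were named by rule: those past the threshold, up to 12 per comparison, a set of well-known members in all cases, and otherwise the 3 with the smallest p. PARP12 and IFI16, past the threshold beyond those 12, are given in the same form. Other pathway genes past the threshold were named, with receptor chains, JAK and STAT genes where measured. Alternatives were other filters, quantile normalization, a floor at 4, trended moderation, the pool number as a block, only the compared arrays, the mean of probe sets, leaving out each array, and 2 covariates. Deviations of same-numbered pools correlated at 0.161, 0.619 and 0.507 between days in NP, where 5 of 6 pools correlated best with their own number. Between CDd7 and NPd7, whose heifers differ in outcome, such correlations reached 0.363. This check therefore does not settle whether the numbers pair pools. The block left the count of members between days in NP at 0. Gene order and chromosome came from the RefSeq table of ARS-UCD2.0, and no coordinates are given.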

Additional observations from a re-analysis of the deposited data

How the results depend on the processing

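Of 812 alternative values for 37 results under 23 settings, 0 called values reversed. The median at day 14, with no member called, changed sign to -0.0084 without NPd14 pool 3. For the day effect in CD, the 15 members became 9 with no filter on low values, where 1200 of all genes were called, against 1633. Over the 12 fits that each left out 1 array the count ranged from 5 to 18, with 652 to 1870 of all genes called. Among covariates chosen after seeing the data, the 3' to 5' difference gave 0 there and the leukocyte marker level 9, with 68 and 862 of all genes called. The leukocyte level gave 1 between days in NP, UBA7, where 9 of all genes were called. Leaving out arrays gave 0 to 1 between days in NP (MX1 without CDd7 pool 1, IFI27 without NPd14 pool 2) and 0 to 2 at day 7. It gave 0 at day 14 and for the difference of day effects. Of all genes, those fits called 0 to 65 between days in NP and 0 to 875 at day 7. With the pool number as a replicate block, the count was 1 at day 7 (UBE2L6) and 18 between days in CD, 16 up and 2 down. Of all genes, that fit called 714 at day 7 and 1833 between days in CD. GBP4, IRF7, IFI44, IRF8 and UBE2L6 were gained there, and ISG15 and PARP12 were lost. Outside NP same-numbered pools correlated from -0.227 to 0.363. Of the 6 pools per comparison, 4 correlated best with their own number at day 7, 2 at day 14 and 3 between days in CD. The cause of each change was not tested. Signal near the floor limits RSAD2, IRF2, CXCL10 and IFIT2. Among the 26 members above 4 on all arrays, 14 rose in CD.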
